A study of Arabidopsis thaliana with 9 samples.

Results

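The genes described here are 46 Arabidopsis thaliana loci that make, conjugate, sense or move the hormone auxin, out of 33602 genes in the deposited count table. They were taken by locus identifier, whatever their values, in 5 classes: 7 YUCCA synthesis enzymes, 25 Aux/IAA repressors, 7 GH3 conjugating enzymes, 5 PIN efflux carriers and the 2 influx carriers AUX1 and LAX3. All 46 were found in the table, and 44 had enough counts to be tested. Polyadenylated RNA came from whole seedlings 6 days old, grown in liquid MS medium with sucrose, in 3 groups of 3 libraries. JA WT was wild-type Col-0 given 5 µM jasmonate for 3 h, and mock lhp1 was the lhp1 mutant given the mock solution, ethanol diluted 5000-fold. Mock WT was Col-0 given the same mock solution, for a time the labels do not state. The mutant is 1 allele (lhp1-3, an allele number found in the column names only), so that the allele and the loss of LHP1 function cannot be told apart. The series is about jasmonate signaling and Polycomb chromatin modifiers, and the comparisons with mock WT ask what a short jasmonate treatment and the lhp1 mutation each did to these genes.

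Auxin is made from tryptophan, with YUCCA flavin monooxygenases carrying out the last step. Auxin joins TIR1/AFB receptors to Aux/IAA proteins, which are then degraded, and this frees the auxin response factors (ARF proteins) that the Aux/IAA proteins hold back. Many Aux/IAA and GH3 genes are themselves switched on by auxin within minutes, so their transcripts are often read as a record of auxin response. GH3 enzymes couple auxin to amino acids and lower the free hormone, PIN proteins carry auxin out of cells, and AUX1 and LAX3 carry it in. LHP1 is a chromodomain protein that binds the histone mark of Polycomb repression.

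Coordinates are those of RefSeq TAIR10.1, 1-based. The sequences upstream of 4 genes are shown because these early response genes had some of the largest falls in lhp1 and hold matches to auxin response elements. Each line gives the 250 bases before the annotated gene start, 5′ to 3′ on the gene's own strand, from the RefSeq genome TAIR10.1. Capitals mark matches to TGTCTC (the canonical auxin response element), TGTCGG (a variant of it) and CACGTG (the G-box), searched on both strands, so a match on the other strand reads GAGACA or CCGACA.
GH3.3 (chr2:9866563-9866812, minus strand): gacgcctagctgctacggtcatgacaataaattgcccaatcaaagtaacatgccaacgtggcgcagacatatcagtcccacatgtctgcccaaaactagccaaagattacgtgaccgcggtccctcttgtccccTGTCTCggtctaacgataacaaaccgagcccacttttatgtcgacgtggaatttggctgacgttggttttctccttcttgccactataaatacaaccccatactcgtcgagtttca
GH3.2 (chr4:17579368-17579617, plus strand): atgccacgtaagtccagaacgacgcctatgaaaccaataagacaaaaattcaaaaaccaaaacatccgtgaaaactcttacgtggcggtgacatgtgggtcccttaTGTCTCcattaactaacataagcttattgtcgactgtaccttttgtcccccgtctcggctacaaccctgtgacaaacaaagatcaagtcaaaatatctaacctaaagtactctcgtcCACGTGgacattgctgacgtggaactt
IAA19 (chr3:5263751-5264000, plus strand): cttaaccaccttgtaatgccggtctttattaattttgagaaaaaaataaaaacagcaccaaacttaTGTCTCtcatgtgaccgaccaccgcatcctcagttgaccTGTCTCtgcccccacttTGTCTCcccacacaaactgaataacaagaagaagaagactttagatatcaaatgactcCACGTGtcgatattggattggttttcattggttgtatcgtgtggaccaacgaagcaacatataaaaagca
IAA5 (chr1:5366498-5366747, minus strand): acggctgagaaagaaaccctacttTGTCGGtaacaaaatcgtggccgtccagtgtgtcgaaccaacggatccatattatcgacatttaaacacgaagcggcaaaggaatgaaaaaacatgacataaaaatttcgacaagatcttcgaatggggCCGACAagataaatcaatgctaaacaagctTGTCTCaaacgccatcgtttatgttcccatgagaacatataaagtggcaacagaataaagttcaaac
GH3.3 had 1 TGTCTC whose first base lies 116 bases before the gene start, and GH3.2 had 1 at 144 bases with a G-box at 27. IAA19 held 3 copies of TGTCTC, at 184, 145 and 128 bases, and a G-box at 70 bases. In IAA5 there was 1 TGTCTC at 67 bases and 2 copies of TGTCGG, of which the one at 97 bases is on the other strand. Over windows from 250 bases before to 50 after the gene start, TGTCTC occurred in 15 of the 46 genes (32.6%) and in 14.2% of the 27443 protein-coding genes. By class it occurred in 4 of 7 GH3, 9 of 25 Aux/IAA, 1 of 7 YUCCA, 1 of 5 PIN and 0 of 2 AUX1/LAX genes. TGTCGG was in 15.2% of the 46 windows against 5.12% of all, and CACGTG in 13.0% against 7.68%. TGTCTC and TGTCGG begin with the same letters, and each match was counted for its own motif. The windows of IAA29, YUC8, PIN3, PIN4, PIN7, IAA3 and IAA2, which also had large falls in lhp1, held no match to these motifs. Besides the 4 genes printed, TGTCTC lay in the windows of IAA1 and IAA6, which fell in lhp1, and of IAA28 and PIN2, which rose. It also lay in those of YUC2, IAA8, IAA30, IAA31, GH3.1 and GH3.5, not called in lhp1, and of IAA20, not tested. The 4 genes were picked for both a fall and a match, so they do not show that the 2 go together. A match is a description of letters, not a measured site.

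Library totals ran from 18081553 to 31454984 counts, lowest in mock lhp1. LHP1 was lowest in the mock lhp1 libraries and JAZ10 highest in the JA WT libraries. LHP1 stood at 10.2, 8.33 and 9.81 CPM (the usual depth-scaled unit, here with TMM factors) in mock lhp1, at 19.3, 18.4 and 19.5 CPM in JA WT and at 20.7, 13.9 and 18.6 CPM in mock WT (log2 fold change in lhp1 −0.91, edgeR adjusted p = 0.0012). JAZ10, a jasmonate-induced repressor gene, was at 101 to 106 CPM in JA WT, 2.75 to 3.69 CPM in mock lhp1 and 2.57 to 3.14 CPM in mock WT. Mock WT replicate 2 stood apart. It lay nearer to mock lhp1 (root mean square log2 distance 0.285) than to its own group (0.333), whereas replicates 1 and 3 lay at 0.525 and 0.507 from mock lhp1. Its LHP1 value was the lowest of mock WT. The floral organ gene AP3 was at 0.544, 16.4 and 0.415 CPM in mock WT and 28.8 to 30.2 CPM in mock lhp1. On these 2 genes replicate 2 thus stood between its own group and the mutant, and the cause was not tested. The 46 genes took 0.168% to 0.172% of the counts in JA WT, 0.171% to 0.177% in mock lhp1 and 0.220%, 0.190% and 0.189% in mock WT replicates 1, 2 and 3. Values without either library are given where the call of an auxin gene rests on it. Marker lists of 7 genes each were also followed. The summed CPM of shoot markers was 7590 to 7748 in mock lhp1 and 13270 to 18190 in mock WT, that of root markers 235 to 294 in mock lhp1 and 144 to 242 in mock WT, and that of floral organ markers 222 to 225 in mock lhp1 and 28.4 to 131 in mock WT, where replicate 2 was the highest. In JA WT the sums were 18020 to 19100 for shoot, 161 to 207 for root and 22.5 to 27.4 for floral organ markers. RBCS1A (mean 11450 CPM in mock WT) and LHCB1.1 (4571 CPM) made up nearly all of the shoot sum. In mock lhp1 PRP3 (mean 159 CPM) made up most of the root sum and SEP3 (158 CPM) most of the floral organ sum. PRP3 was not called in lhp1 (edgeR adjusted p = 0.21). The sums thus mostly follow these genes. By gene, 6 of 6 tested floral organ markers had positive log2 fold changes in lhp1 (1.66 to 2.55), and 3 were called. Of 7 root markers 6 were positive and 2 called higher, and of 6 tested shoot markers 5 were negative and 3 called lower. CLV3, a shoot meristem marker, had counts in only 2 of the 9 libraries, and AP1 had none in JA WT. After jasmonate 0 of the root markers were called, with 1 at an unadjusted p under 0.05 and 0 by DESeq2, and of the other marker lists STM and AG were lower. AG was at 0.294 to 0.415 CPM in JA WT and 0.837, 5.67 and 1.09 CPM in mock WT, so replicate 2 raises the size of its fall. With limma voom 0 floral organ markers were called after jasmonate. In whole seedlings fewer cells of a type and less RNA per cell cannot be told apart, and the part of organ composition in the changes below was not tested.

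After jasmonate few of the auxin genes moved. Of 44 tested, 0 were called higher and 6 lower (13.6%), while 15.7% of all 20986 genes tested were called, 8.62% higher and 7.07% lower, so the share called was near the background. No class of the 5 had a called rise. At an unadjusted p under 0.05 the counts were 4 higher and 10 lower, DESeq2 called 0 higher and 6 lower, and limma voom 1 higher and 5 lower. This fit did not pair the libraries by replicate number. With the number as a block GH3.3 was called higher (0.69, edgeR adjusted p = 0.042). The 6 that fell were YUC6, IAA4, GH3.5, GH3.6, GH3.17 and LAX3, and only GH3.17 fell by 2-fold or more, beside 5.06% of all genes tested that were called with a change of that size. The median log2 fold change over the 44 genes was −0.09, beside 0.00 over all genes tested. Leaving out a mock WT library moved the counts: without replicate 1 they were 2 higher (GH3.3 and IAA2) and 5 lower, without replicate 2 they were 1 higher (PIN2) and 7 lower with 14.5% of all genes called, and without replicate 3 they were 0 higher and 9 lower.

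In lhp1 more of them moved, mostly down. Of the same 44 genes, 3 were called higher and 20 lower (52.3%), beside 25.5% of all genes tested, 11.1% higher and 14.4% lower. The change was at least 2-fold in 11 of the 23, beside 4.12% of all genes tested that were called with such a change. The median log2 fold change was −0.27, beside 0.00 over all genes. Without mock WT replicate 2 the counts were 3 higher and 22 lower, with 32.5% of all genes called. Without mock WT replicate 1 they were 4 higher and 16 lower. The groups did not overlap for 7 higher and 21 lower of the 44 genes, beside 44.6% of all genes tested (21.4% higher, 23.1% lower). After jasmonate they did not overlap for 1 higher and 11 lower of the 44, beside 30.1% of all genes tested (16.2% higher, 13.9% lower). Both comparisons share the mock WT libraries, so their values are set side by side and not correlated.

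**Figure D1:**
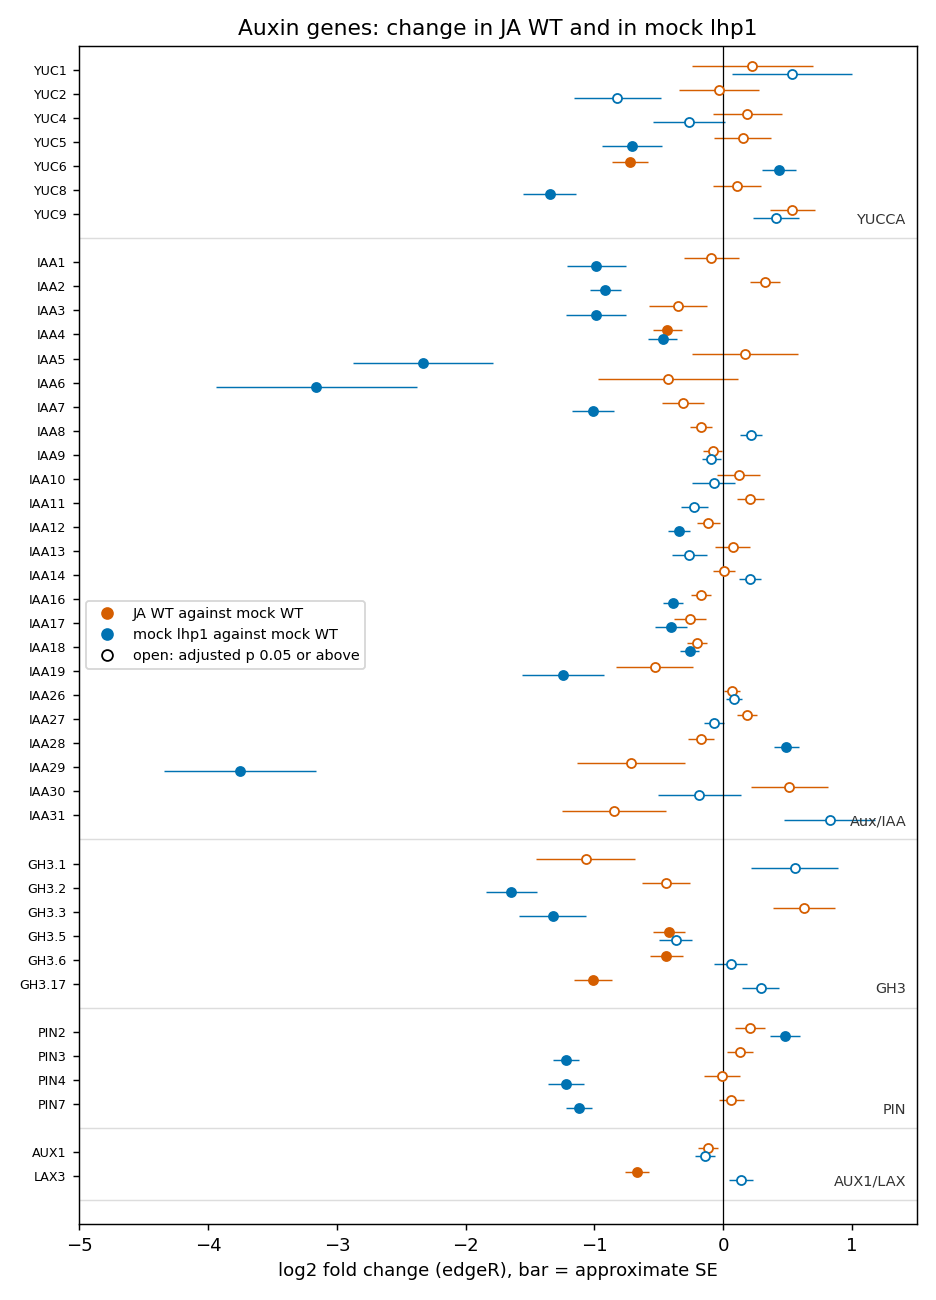
log2 fold change (edgeR, horizontal axis) of 43 of the 44 tested auxin genes, one row per gene grouped by class, in JA WT (orange) and in mock lhp1 (blue), both against mock WT; bars are approximate standard errors and filled points passed an adjusted p of 0.05. Filled orange points number 6, all left of 0, and filled blue points number 23, of which 20 are left of 0 and reach −3.75 at IAA29.

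Among the synthesis genes, YUC6 and YUC8 moved most and in different comparisons. YUC6 (AT5G25620, chromosome 5, 8934941–8938768) had 4.20, 4.66 and 4.67 CPM in JA WT, 10.8, 10.4 and 9.15 CPM in mock lhp1 and 6.20, 8.56 and 7.62 CPM in mock WT. All JA WT libraries lay below, and all mock lhp1 libraries above, every mock WT library. Its log2 fold change was −0.73 ± 0.14 after jasmonate (edgeR adjusted p = 0.0041), a call kept in every alternative run, and 0.43 ± 0.13 in lhp1 (edgeR adjusted p = 0.034). The rise in lhp1 lost its call without mock lhp1 replicate 1 or 2 or mock WT replicate 1 or 3 (0.32 to 0.45). YUC8 (AT4G28720, chromosome 4, 14192569–14194302), which is induced by warmth and shade, had 3.78, 4.34 and 3.25 CPM in mock lhp1 and 13.0, 7.30 and 8.71 CPM in mock WT. It fell by 1.35 ± 0.21 on the log2 scale in lhp1 (edgeR adjusted p = 0.0012), with no overlap and in every alternative. In JA WT it stood at 9.60, 10.9 and 10.5 CPM, within the range of mock WT (0.10 ± 0.19, edgeR adjusted p = 0.77). YUC5 (AT5G43890, chromosome 5, 17648576–17650375) had 2.21, 2.17 and 2.29 CPM in mock lhp1 and 4.52, 2.46 and 3.96 CPM in mock WT. The mock lhp1 libraries were all lower, mock WT replicate 2 lying close to them. Its fall of 0.71 in lhp1 (edgeR adjusted p = 0.047) lost its call in 12 of 17 alternatives, among them leaving out any 1 library other than mock WT replicate 2 (−0.73 to −0.52). YUC5 in JA WT was at 3.39 to 4.74 CPM and was not called.

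The other YUCCA genes were not called against mock WT with all 9 libraries and TMM scaling. YUC9 (AT1G04180, chromosome 1, 1104493–1106241) had 3.82, 4.86 and 3.22 CPM in JA WT, 3.33, 3.58 and 3.87 CPM in mock lhp1 and 2.64, 2.78 and 2.72 CPM in mock WT. Both groups lay wholly above mock WT, but neither difference passed the adjusted threshold (0.54 ± 0.18 in JA WT, edgeR adjusted p = 0.062, and 0.41 ± 0.18 in mock lhp1, edgeR adjusted p = 0.12). YUC9 was called after jasmonate without JA WT replicate 3 (0.66) and in lhp1 with library totals in place of TMM factors (0.55). YUC2 was at 0.981 to 1.19 CPM in mock lhp1 and 1.12 to 2.97 CPM in mock WT (−0.82, edgeR adjusted p = 0.095). The lowest mock WT value was that of replicate 2, and without it YUC2 was called lower in lhp1 (−1.11, edgeR adjusted p = 0.011). YUC1 and YUC4 stayed under 2 CPM in all libraries, where YUC1 rests on 4 to 16 counts a library.

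The GH3 genes divided by member. GH3.17 (AT1G28130, chromosome 1, 9825169–9828118), whose enzyme couples auxin to glutamate, fell after jasmonate. It had 15.1, 17.6 and 11.7 CPM in JA WT and 33.9, 27.7 and 27.1 CPM in mock WT, with no overlap. The log2 fold change of GH3.17 was −1.01 ± 0.15 (edgeR adjusted p = 0.00066), kept in every alternative, and in mock lhp1 its 33.3, 41.4 and 33.8 CPM were not called different (0.29 ± 0.14, edgeR adjusted p = 0.16). GH3.6 and GH3.5, which couple auxin to aspartate, fell less. GH3.6 (AT5G54510, chromosome 5, 22130964–22133688) had 41.1, 42.3 and 59.2 CPM in JA WT, 73.4, 61.2 and 67.8 CPM in mock lhp1 and 62.8, 70.0 and 61.5 CPM in mock WT. JA WT was lowest without overlap (−0.44 ± 0.13, edgeR adjusted p = 0.039), and mock lhp1 overlapped mock WT (0.06 ± 0.13, edgeR adjusted p = 0.77). GH3.5 (AT4G27260, chromosome 4, 13653579–13656285) had 20.7, 20.9 and 21.6 CPM in JA WT, 22.0, 23.4 and 20.01 CPM in mock lhp1 and 34.5, 26.8 and 23.3 CPM in mock WT. JA WT lay below all mock WT libraries and mock lhp1 overlapped them by 1 library (−0.42 ± 0.13 in JA WT, edgeR adjusted p = 0.043, and −0.37 ± 0.13 in mock lhp1, edgeR adjusted p = 0.052). The calls after jasmonate were near the threshold: that of GH3.6 was lost in 7 of 17 alternatives, with values of −0.45 to −0.36 and among them without mock WT replicate 2, JA WT replicate 1 or 2 or any mock lhp1 library. That of GH3.5 was lost in 9, with values of −0.46 to −0.26, among them without any JA WT or mock lhp1 library and without mock WT replicate 1. In lhp1 GH3.5 was called lower by DESeq2 (−0.36), with no filter (−0.37), with the replicate block (−0.36) and without mock WT replicate 2 (−0.41) or 3 (−0.49).

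GH3.2 and GH3.3, whose upstream sequences are printed above, were low in the mutant. GH3.2 (AT4G37390, chromosome 4, 17579618–17582022) had 7.50, 9.69 and 8.53 CPM in mock lhp1 and 37.2, 20.6 and 22.9 CPM in mock WT. The fall was 1.65 ± 0.20 on the log2 scale (edgeR adjusted p = 0.00036), without overlap and in every alternative. In JA WT GH3.2 stood at 19.1, 20.6 and 19.5 CPM, just below all mock WT libraries (−0.44 ± 0.18, edgeR adjusted p = 0.14), and the call after jasmonate appeared without mock WT replicate 2 (−0.60, edgeR adjusted p = 0.030). GH3.3 (AT2G23170, chromosome 2, 9863855–9866562) had 40.9, 36.9 and 40.7 CPM in JA WT, 11.1, 11.5 and 8.27 CPM in mock lhp1 and 39.4, 17.8 and 19.99 CPM in mock WT. The mutant was lowest without overlap, and JA WT lay around mock WT replicate 1 and well above mock WT replicates 2 and 3. GH3.3 fell by 1.32 ± 0.26 in lhp1 (edgeR adjusted p = 0.0047). In the absence of mock WT replicate 1 this change was −0.88. After jasmonate its log2 fold change was 0.62 ± 0.24 (edgeR adjusted p = 0.11). With the replicate number as a block it was 0.69 (edgeR adjusted p = 0.042), and without mock WT replicate 1 it was 1.05 (edgeR adjusted p = 0.00011). GH3.1 had 0.300, 0.883 and 0.415 CPM in JA WT, 1.18, 2.07 and 1.58 CPM in mock lhp1 and 1.26, 1.08 and 0.943 CPM in mock WT, and neither comparison was called (−1.07 in JA WT and 0.56 in mock lhp1). GH3.1 was called lower after jasmonate without JA WT replicate 2 (−1.59). GH3.4 had 0 counts in all 9 libraries, which allows up to 0.104 to 0.151 CPM a library at 3 counts (counting error only).

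In the Aux/IAA class, 13 of 24 tested genes fell in lhp1 and 1 rose, while after jasmonate 1 fell and 0 rose. The largest falls were in genes with low counts. IAA29 (AT4G32280, chromosome 4, 15583332–15584903), a gene induced by shade and warmth, had 0.147, 0.303 and 0.220 CPM in mock lhp1 (3, 6 and 5 counts) and 5.02, 1.66 and 2.56 CPM in mock WT. The mutant was lowest by a wide margin, and the log2 fold change was −3.75 ± 0.59 (edgeR adjusted p = 0.0014), kept in every alternative. IAA29 in JA WT was at 1.67, 0.981 and 2.80 CPM and overlapped mock WT (−0.72 ± 0.42, edgeR adjusted p = 0.29). IAA6 (AT1G52830, chromosome 1, 19672476–19673652) had 7, 0 and 0 counts in mock lhp1 and 38, 15 and 27 counts in mock WT. In CPM these were 0.343, 0 and 0 in mock lhp1 against 1.59, 0.542 and 1.02 in mock WT, and JA WT was at 0.815, 0.736 and 0.762 CPM. The fitted change in lhp1 was −3.16 (edgeR adjusted p = 0.014), which was not called without mock lhp1 replicate 2 or 3 (−2.63 and −2.55) and was −7.66 without mock lhp1 replicate 1, so its size rests on 7 counts. IAA6 after jasmonate was not called (−0.43, edgeR adjusted p = 0.66).

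IAA5 and IAA19, both with auxin response element matches upstream, were likewise lowest in mock lhp1. IAA5 (AT1G15580, chromosome 1, 5365512–5366497) had 0.343, 0.252 and 0.220 CPM in mock lhp1 and 2.51, 0.903 and 0.792 CPM in mock WT (−2.33 ± 0.54, edgeR adjusted p = 0.010). JA WT was at 1.20, 1.37 and 2.04 CPM, within the mock WT range (0.17, edgeR adjusted p = 0.84). IAA19 (AT3G15540, chromosome 3, 5264001–5265695), which acts in hypocotyl growth and tropisms, had 3.14, 4.09 and 4.001 CPM in mock lhp1 and 14.7, 6.32 and 5.70 CPM in mock WT. No library overlapped between these groups, and mock WT replicate 1 stood well above the others. The log2 fold change of IAA19 was −1.24 ± 0.32 (edgeR adjusted p = 0.016), −0.68 without mock WT replicate 1 and −1.13 without mock lhp1 replicate 1, where it was not called (edgeR adjusted p = 0.069). In JA WT its 6.22, 6.38 and 5.82 CPM fell inside the mock WT range (−0.53 ± 0.30, edgeR adjusted p = 0.27).

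IAA4 was the 1 gene of the 46 called lower in both comparisons. IAA4 (AT5G43700, chromosome 5, 17550179–17551715) had 43.3, 35.3 and 44.4 CPM in JA WT, 40.0, 43.3 and 36.8 CPM in mock lhp1 and 63.8, 49.99 and 52.7 CPM in mock WT. Neither group overlapped mock WT, and the log2 fold changes were −0.43 ± 0.11 after jasmonate (edgeR adjusted p = 0.022) and −0.47 ± 0.11 in lhp1 (edgeR adjusted p = 0.011). The call for IAA4 was lost after jasmonate without JA WT replicate 2 (−0.35) and with the compared groups alone (−0.44), and in lhp1 without mock lhp1 replicate 3 (−0.41).

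The remaining Aux/IAA calls were all in lhp1. IAA7, in which stabilizing mutations cause auxin resistance, fell by 1.01 ± 0.16, IAA3 by 0.99 ± 0.23, IAA1 by 0.99 ± 0.23 and IAA2 by 0.91 ± 0.12 on the log2 scale (edgeR adjusted p = 0.0017, 0.011, 0.0097 and 0.00057). Each of these 4 kept its call in every alternative. IAA2 (AT3G23030, chromosome 3, 8180646–8182095) had 39.3, 41.7 and 41.8 CPM in mock lhp1 and 94.0, 65.2 and 72.6 CPM in mock WT, and its 104, 86.4 and 99.3 CPM in JA WT were not called (0.32, edgeR adjusted p = 0.095) except without mock WT replicate 1 (0.47). Smaller falls were those of IAA16 (−0.39), IAA12 (−0.34), IAA17 (−0.40) and IAA18 (−0.26). Of these 4, IAA16 kept its call in every alternative. Without mock WT replicate 1 the calls for IAA12 (−0.29), IAA17 (−0.21) and IAA18 (−0.24) were lost, and IAA3 fell by 0.66. They were also lost without mock lhp1 replicate 2 or 3 or mock WT replicate 3 for IAA12 (−0.33 to −0.31), without JA WT replicate 2 or any mock lhp1 library for IAA17 (−0.44 to −0.38), and without any mock lhp1 library or mock WT replicate 3 for IAA18 (−0.29 to −0.22). With library totals in place of TMM factors IAA12 (−0.20), IAA17 (−0.25) and IAA18 (−0.11) were not called either. IAA28 (AT5G25890, chromosome 5, 9033204–9035140), a repressor that acts in lateral root initiation, was the class's called rise, at 50.5, 56.3 and 50.8 CPM in mock lhp1 and 37.4, 43.0 and 31.8 CPM in mock WT (0.49 ± 0.10, edgeR adjusted p = 0.0050), kept in every alternative. In JA WT IAA28 was at 33.9, 32.7 and 33.0 CPM. After jasmonate IAA7 was called lower without mock WT replicate 2 (−0.46), and IAA28 (−0.29), IAA8 (−0.28) and IAA31 (−1.18) without mock WT replicate 3.

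Of the 10 tested Aux/IAA genes called in neither comparison, IAA9, IAA26 and IAA10 were the steadiest, with log2 fold changes of −0.09 to 0.12 in both. IAA8, IAA11, IAA13, IAA14, IAA27 and IAA30 lay between −0.26 and 0.51. IAA31 had 0.472, 0.834 and 0.450 CPM in JA WT, 1.77, 2.17 and 1.58 CPM in mock lhp1 and 1.51, 1.08 and 0.528 CPM in mock WT (−0.85 after jasmonate and 0.83 in lhp1, neither called). Without mock WT replicate 1, IAA31 (1.18, edgeR adjusted p = 0.040) and IAA8 (0.30, edgeR adjusted p = 0.018) were called higher in lhp1, and DESeq2 also called IAA8 (0.23). IAA20 had 2 to 11 counts a library and was not tested. Where strand was not used in counting, reads of IAA3, IAA5, IAA9, IAA10, IAA11, IAA13 and IAA27 cannot be told apart from those of an annotated gene that overlaps each on the opposite strand. IAA3 and IAA17 are neighbours on chromosome 1, as are IAA1 and IAA14 on chromosome 4. In these pairs IAA3 and IAA17 both fell in lhp1, while IAA1 fell and IAA14 was not called (0.21, edgeR adjusted p = 0.10).

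Levels between genes were compared as CPM per kilobase of annotated exon. IAA9 was highest in every group, at 125 in JA WT, 124 in mock lhp1 and 133 in mock WT. In mock WT the next were IAA7 (85.3), IAA16 (78.0), IAA17 (77.1), IAA8 (69.0) and IAA2 (56.9). PIN7 (52.8) and PIN3 (44.4) were the highest carriers in mock WT, ahead of AUX1 (36.3), and GH3.6 (27.9) was the highest GH3 gene. Highest of the YUCCA genes was YUC8 in JA WT (5.97) and mock WT (5.57) but YUC6 in mock lhp1 (4.25, against 2.19 for YUC8). The falls in lhp1 thus included both abundant repressors such as IAA7 and IAA2 and transcripts near the limit of counting such as IAA6 and IAA29.

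Of the 5 PIN carriers, 3 were lower in lhp1 and 1 was higher. PIN3 (AT1G70940, chromosome 1, 26742940–26746469), which acts in tropisms and in lateral auxin flow, had 51.9, 51.2 and 53.8 CPM in mock lhp1 and 124, 102 and 141 CPM in mock WT. PIN4 (AT2G01420, chromosome 2, 180033–183764) had 25.4, 26.0 and 23.5 CPM in mock lhp1 and 72.8, 44.8 and 57.0 CPM in mock WT. PIN7 (AT1G23080, chromosome 1, 8180189–8183650) had 83.4, 79.0 and 77.3 CPM in mock lhp1 and 196, 145 and 181 CPM in mock WT. In these 3 closely related genes the mutant lay below every mock WT library, and mock WT replicate 2 was the lowest of its group. Their log2 fold changes were −1.22 ± 0.10, −1.22 ± 0.14 and −1.12 ± 0.10 (edgeR adjusted p = 0.00011, 0.00030 and 0.00013). All 3 calls were kept in every alternative, and without mock WT replicate 2 the changes were −1.34, −1.38 and −1.24. PIN2 (AT5G57090, chromosome 5, 23100516–23105228), the carrier of root epidermis and lateral root cap that acts in gravitropism, went the other way. It had 55.4, 54.3 and 57.3 CPM in mock lhp1 and 33.7, 47.6 and 38.5 CPM in mock WT (0.48 ± 0.12, edgeR adjusted p = 0.013), with no overlap. Beside it the root markers COBL9 and CASP1 were also called higher in lhp1 (0.58 and 0.50), and the other 5 root markers were not called (−0.10 to 0.66). Beside PIN3, PIN4 and PIN7 the shoot markers RBCS1A, LHCB1.1 and SPCH were called lower (−1.01, −1.25 and −0.48). The shoot markers STM (0.07), AS1 (−0.005) and MUTE (−0.76) were not called, and CLV3 was not tested. The part of organ composition in the change of PIN2 or of PIN3, PIN4 and PIN7 was not tested.

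After jasmonate 0 of the 5 PIN genes were called by edgeR, DESeq2 or limma voom, and 0 had an unadjusted p under 0.05. PIN3 stood at 137, 133 and 132 CPM in JA WT (0.13 ± 0.10), PIN4 at 60.5, 57.0 and 55.7 CPM (−0.01 ± 0.14) and PIN7 at 187, 172 and 186 CPM (0.06 ± 0.10). These values lay inside the mock WT range. PIN2 had 40.6, 49.8 and 48.1 CPM in JA WT (0.21 ± 0.12, edgeR adjusted p = 0.27) and was called without mock WT replicate 2 (0.35, edgeR adjusted p = 0.029).

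Of the 2 influx carriers, 1 fell after jasmonate and 0 were called in lhp1 by edgeR, DESeq2 or limma voom or at an unadjusted p under 0.05. LAX3 (AT1G77690, chromosome 1, 29200417–29203418), which acts in lateral root emergence, had 41.6, 41.1 and 34.9 CPM in JA WT, 68.5, 66.5 and 70.2 CPM in mock lhp1 and 68.8, 64.0 and 54.2 CPM in mock WT. JA WT lay below every other library. Its log2 fold change was −0.67 ± 0.10 after jasmonate (edgeR adjusted p = 0.00052), kept in every alternative, and 0.13 ± 0.09 in lhp1 (edgeR adjusted p = 0.32). AUX1 (AT2G38120, chromosome 2, 15972876–15977180), the founding influx carrier, had 92.1 to 100 CPM in JA WT, 92.4 to 96.3 CPM in mock lhp1 and 94.9 to 115 CPM in mock WT (−0.12 after jasmonate and −0.14 in lhp1, neither called).

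**Figure D2:**
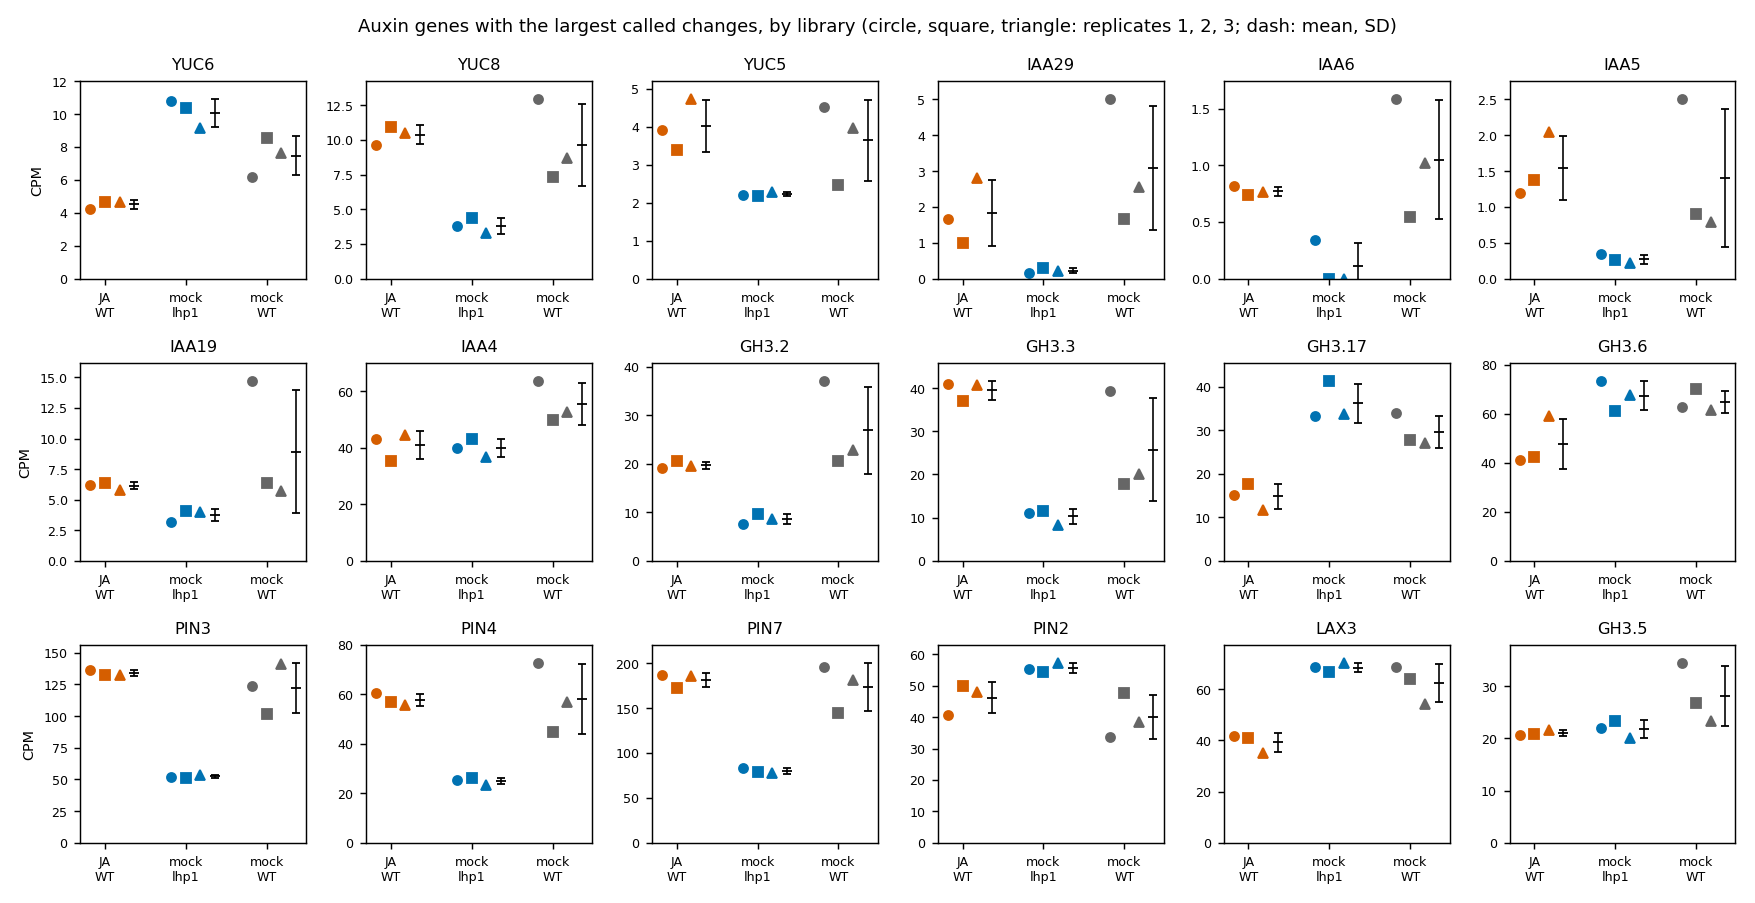
CPM (vertical axis, from 0) in JA WT, mock lhp1 and mock WT of 18 auxin genes with a called change against mock WT. The genes were chosen class by class and not by rank over all classes. Each symbol is 1 library and the dash with its bar is the mean and SD of 3. Mock lhp1 lies lowest for YUC8, IAA29, GH3.2, GH3.3, PIN3, PIN4 and PIN7, JA WT lies lowest for YUC6, GH3.17 and LAX3, and mock WT replicate 1 (circle) is the highest of its group for IAA5, IAA6, IAA19, IAA29, GH3.2 and GH3.3.

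**Figure D3:**
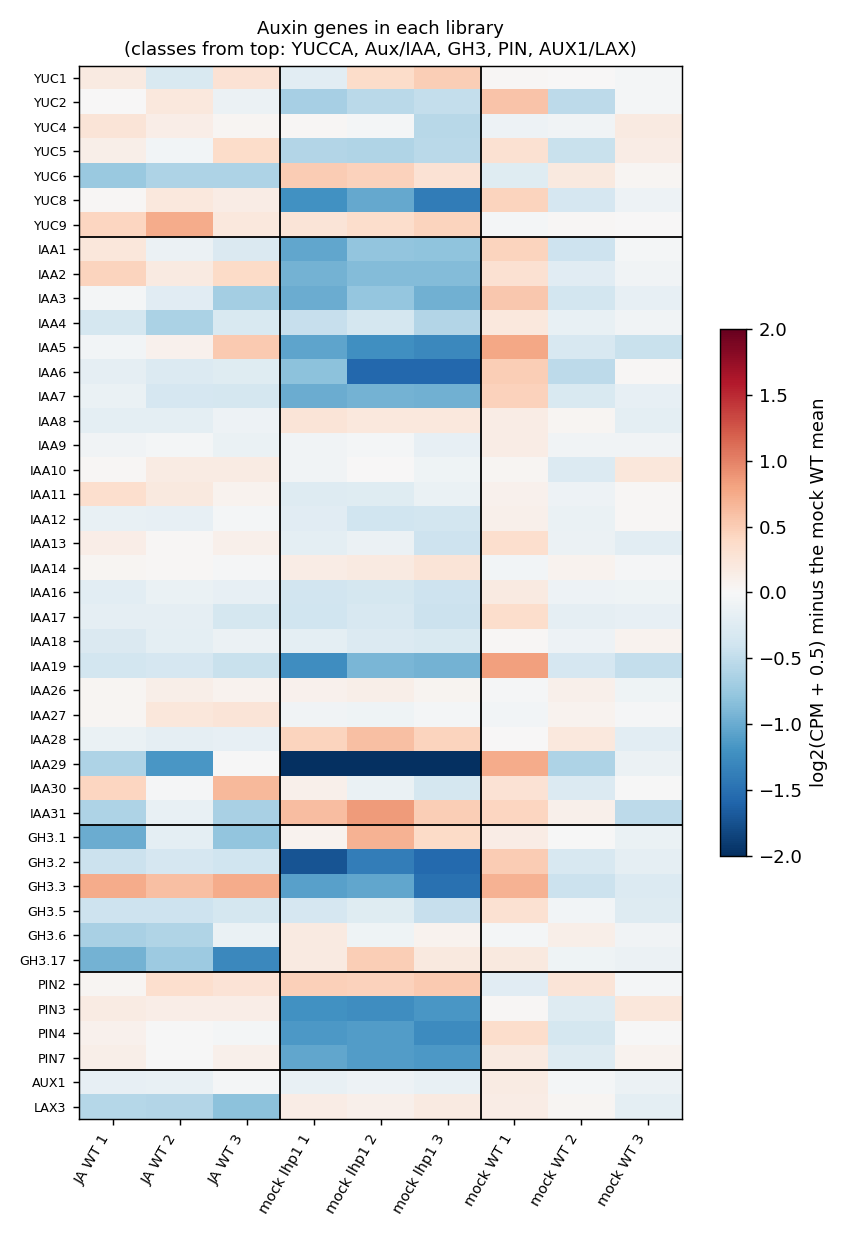
Colour gives log2(CPM + 0.5) in each library minus the mean of the 3 mock WT libraries, for 43 of the 44 tested auxin genes in class order; blue is lower and red higher, and values past 2 in either direction take the end colour. The mock lhp1 columns are blue for most Aux/IAA genes, GH3.2, GH3.3, PIN3, PIN4 and PIN7, while the JA WT columns stay pale apart from single genes such as GH3.17 and LAX3.

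The classes can be set beside each other by count and median. In JA WT against mock WT the median log2 fold change was 0.15 for YUCCA, −0.14 for Aux/IAA, −0.44 for GH3, 0.06 for PIN and −0.39 for the 2 influx carriers, beside 0.00 over all genes. The GH3 class had 3 of its 6 tested genes called lower, and YUCCA, Aux/IAA and AUX1/LAX had 1 each of 7, 24 and 2. In mock lhp1 against mock WT the medians were −0.27 for YUCCA, −0.30 for Aux/IAA, −0.16 for GH3, −1.12 for PIN and −0.00 for the influx carriers, again beside 0.00. The PIN median was the lowest since 3 of its 5 genes fell by over 2-fold, whereas in Aux/IAA 5 of 24 changed by that much. Class sizes of 2 to 24 and medians over different genes allow no ranking of the classes by a test, and none was made. With library totals in place of TMM factors, the median of all genes moved by −0.12 after jasmonate and 0.15 in lhp1, and 13 auxin genes were called lower after jasmonate and 10 higher and 16 lower in lhp1. Those added after jasmonate were IAA8, IAA16, IAA17, IAA18, GH3.1, GH3.2 and AUX1, and those added as higher in lhp1 included YUC9, GH3.17, LAX3, IAA8, IAA14 and IAA26. Higher calls then made up 28.6% of all calls after jasmonate (55% with TMM) and 72.9% in lhp1 (43.4% with TMM).

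**Figure D4:**
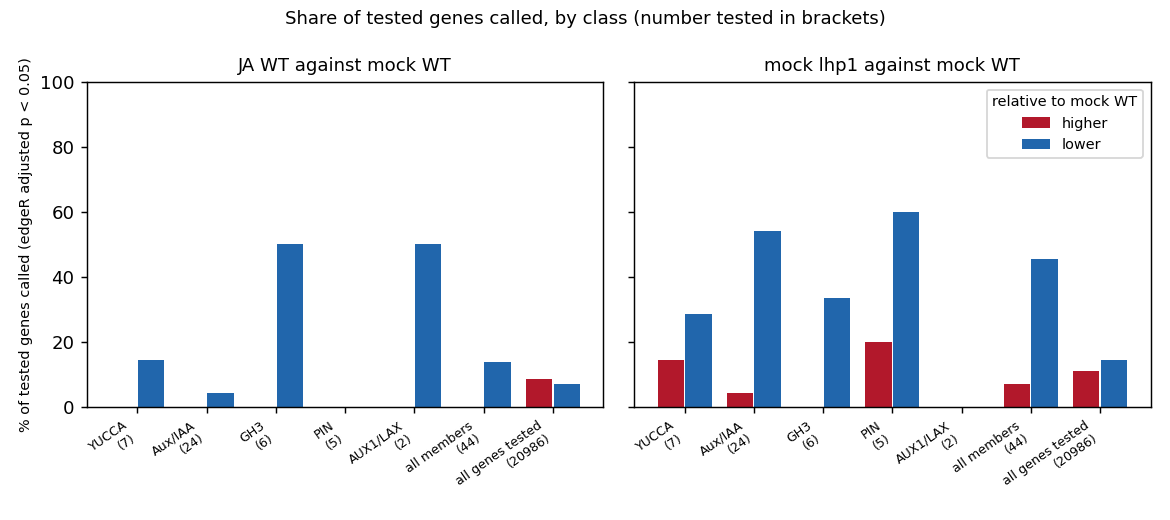
Share (%) of tested genes called higher (red) or lower (blue) at an edgeR adjusted p below 0.05, per class, for all 44 auxin genes and for all 20986 genes tested, in JA WT (left) and mock lhp1 (right) against mock WT. In mock lhp1 the blue bars exceed the red ones in every class with a call, and in JA WT only blue bars occur in the classes.

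By gene, 19 of the 44 fell in lhp1 and were not called after jasmonate, and 4 fell after jasmonate and were not called in lhp1. IAA4 fell in both, YUC6 fell after jasmonate and rose in lhp1, 2 rose in lhp1 alone and 17 were called in neither. A call in one comparison and not in the other is no test of a difference, and that test is JA WT against mock lhp1, which leaves mock WT out of the contrast. There 17 of the 44 genes were higher and 8 lower (56.8%), beside 45.4% of all genes tested, 25.1% higher and 20.3% lower. With library totals as scaling the balance turned, to 13 higher and 16 lower, and higher calls made up 21.4% of all calls (55.3% with TMM). The libraries did not overlap for 23 higher and 10 lower genes, beside 60.2% of all genes tested. Of the 20 genes lower in lhp1, 15 were higher in JA WT than in mock lhp1 and 5 were not called. Among these 15, the calls of IAA3 (0.64) and IAA16 were lost in 9 and 10 of 17 alternatives, that of IAA6 in 2 and that of YUC5 in 1. These 20 were chosen by low values in the same mock lhp1 libraries, so this direction is in part set by the choice. The differences were 3.03 ± 0.62 for IAA29, 1.95 ± 0.26 for GH3.3, 1.45 ± 0.21 for YUC8, 1.35 ± 0.10 for PIN3 and 1.24 ± 0.12 for IAA2 on the log2 scale (edgeR adjusted p = 0.0022, 0.00016, 0.00023, 3.5e-06 and 2.3e-05). IAA19 missed the threshold (0.71, edgeR adjusted p = 0.098) except without mock WT replicate 1 (0.69) or with the compared groups alone (0.68), and IAA4 differed by 0.04 ± 0.11. Of the 6 genes that fell after jasmonate, 4 were also lower in JA WT than in mock lhp1, namely YUC6 (−1.16), GH3.17 (−1.30), GH3.6 (−0.50) and LAX3 (−0.80). Both comparisons use the same JA WT libraries, so this count is likewise in part set by the choice of genes. IAA31 (−1.67) and GH3.1 (−1.63), called in neither comparison with mock WT, were lower in JA WT than in mock lhp1. IAA16 (0.22) and IAA27 (0.25) were called higher in this comparison, and with library totals as scaling their signs turned (−0.05 and −0.01).

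The rest of the pathway was followed through 52 further genes in 8 lists, 44 of them tested. After jasmonate 3 were higher and 7 lower, and in lhp1 3 were higher and 16 lower, beside the same backgrounds as above. The SAUR family holds early auxin-induced genes, and its best-known members promote cell expansion. The 10 SAUR genes listed, not the whole family, all fell in lhp1 and made up 10 of the 16 further genes lower there. Their log2 fold changes ran from −3.43 to −1.83 with a median of −2.34, and each kept its call in every alternative. SAUR16 had 7.60, 7.67 and 7.04 CPM in mock lhp1 and 30.3, 17.2 and 31.7 CPM in mock WT. SAUR19 had 0.0981, 0.0505 and 0.132 CPM in mock lhp1 and 1.55, 0.614 and 1.09 CPM in mock WT. No SAUR gene was called after jasmonate by edgeR (0 of 10), with 1 at an unadjusted p under 0.05 and 1 lower by DESeq2. SAUR19 to SAUR24 are near-identical, so their reads may have been split between them and their separate values are uncertain.

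Upstream of the YUCCA step, TAA1, the tryptophan aminotransferase of auxin synthesis, had 15.2, 17.2 and 17.6 CPM in mock lhp1 and 44.4, 28.3 and 42.1 CPM in mock WT. It fell by 1.20 ± 0.15 on the log2 scale (edgeR adjusted p = 0.00042), as YUC8 did. TAR2, its paralog, fell after jasmonate (−0.40 ± 0.09, edgeR adjusted p = 0.013) and not in lhp1 (0.23, edgeR adjusted p = 0.083). AT1G14120 and AT1G14130, listed here as auxin oxidation genes and annotated as oxygenases, rose after jasmonate. AT1G14120 had 54.7, 58.1 and 50.5 CPM in JA WT, 16.2, 17.2 and 18.5 CPM in mock lhp1 and 8.63, 12.0 and 7.39 CPM in mock WT. Both JA WT and mock lhp1 lay above mock WT (2.54 ± 0.14 in JA WT, edgeR adjusted p = 3.5e-07, and 0.89 ± 0.15 in mock lhp1, edgeR adjusted p = 0.0019). AT1G14130 had 18.7, 18.6 and 17.5 CPM in JA WT and 5.61, 9.07 and 6.03 CPM in mock WT (1.40 ± 0.15, edgeR adjusted p = 6.8e-05), and was not called in lhp1 (0.41).

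Of 6 TIR1/AFB receptor genes, 0 were called in lhp1 by edgeR, DESeq2 or limma voom or at an unadjusted p under 0.05. After jasmonate AFB1 alone was lower (−0.30, edgeR adjusted p = 0.040), and its call was lost with the replicate block (edgeR adjusted p = 0.051) and without any 1 of JA WT replicate 1, mock WT replicate 1 or 2 or the mock lhp1 libraries (−0.30 to −0.24). Of 12 ARF genes, ARF5, which acts in embryo and vascular patterning, rose in lhp1 (0.63 ± 0.11, edgeR adjusted p = 0.0028). ARF4 (−0.56), ARF1 (−0.33) and ARF2 (−0.25) fell, the ARF1 call being lost without mock lhp1 replicate 1 or 3 or mock WT replicate 1 (−0.30 to −0.22) and the ARF2 call without any mock lhp1 library (−0.26 to −0.25). ARF10 (−0.52) and ARF6 (−0.22) fell after jasmonate, and ARF6 was not called without JA WT replicate 2 (−0.23). Of the 13 further members of the same families, 6 were tested and 1 was lower in each comparison. PIN5, a carrier of the endoplasmic reticulum and not among the 5 above, had 0.643, 1.18 and 0.692 CPM in JA WT and 2.93, 2.75 and 2.23 CPM in mock WT (−1.67 ± 0.27, edgeR adjusted p = 0.0013). LAX1, a further influx carrier, fell in lhp1 (−0.85 ± 0.13, edgeR adjusted p = 0.0013) while AUX1 and LAX3 were not called there. LBD29, an ARF target in lateral root formation, fell after jasmonate (−1.39 ± 0.30, edgeR adjusted p = 0.0091), with 0.343 to 0.554 CPM in JA WT and 0.943 to 1.30 CPM in mock WT. Of 3 ABCB transporters, ABCB4 was higher (0.61 after jasmonate, 0.44 in lhp1) and ABCB19 lower (−0.28 after jasmonate, −0.20 in lhp1) in both comparisons. In lhp1 the ABCB4 call was lost without mock lhp1 replicate 2 (0.40), and that of ABCB19 without any mock lhp1 library or mock WT replicate 1 or 3 (−0.21 to −0.19). With library totals as scaling, the falls in lhp1 of ABCB19 (−0.058), ARF1 (−0.18) and ARF2 (−0.11) were not called.

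**Figure D5:**
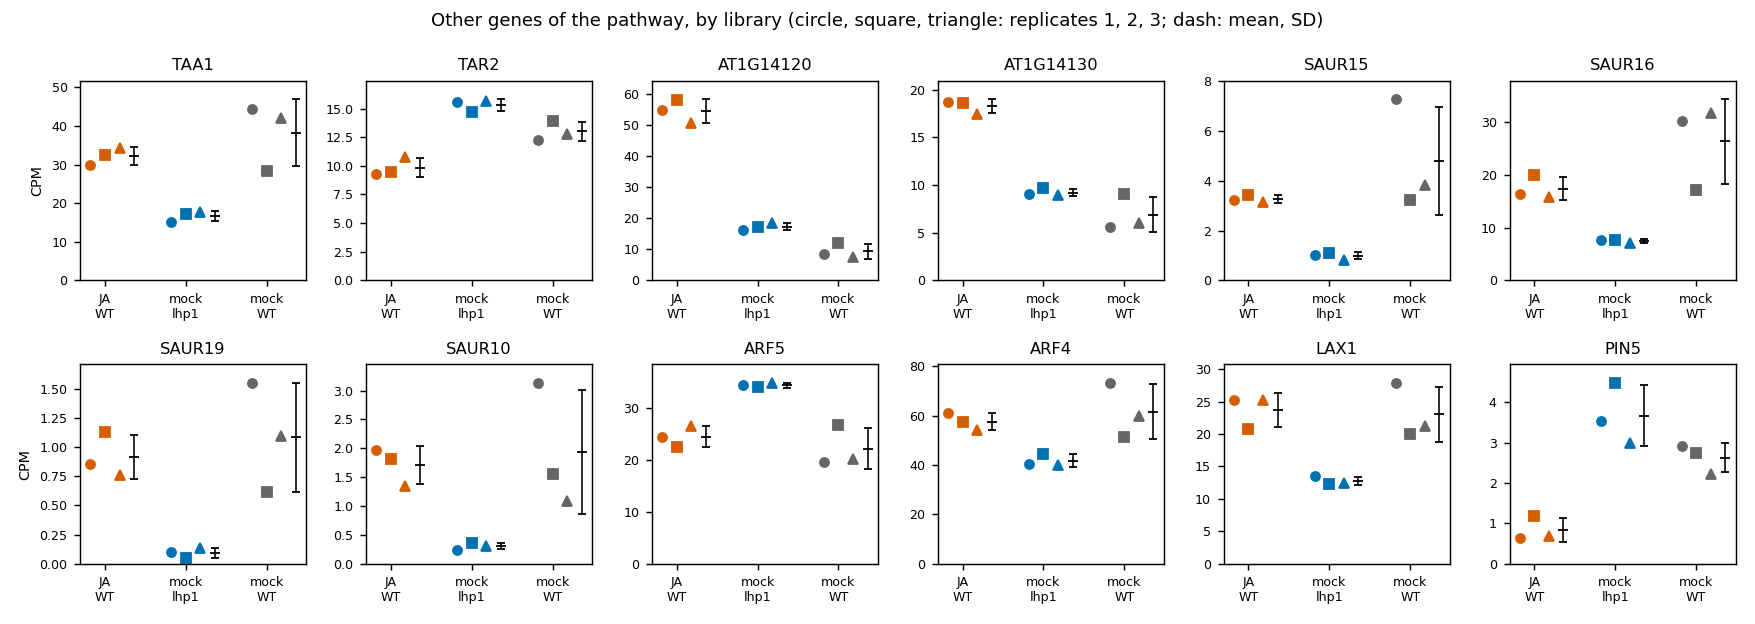
CPM (vertical axis, from 0) of 12 further genes of the auxin pathway in JA WT, mock lhp1 and mock WT; each symbol is 1 library and the dash with its bar is the mean and SD of 3. JA WT stands highest for AT1G14120 and AT1G14130 and lowest for TAR2 and PIN5, and mock lhp1 stands lowest for TAA1, LAX1, ARF4 and the 4 SAUR genes shown.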

How the data were processed

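Polyadenylated RNA was measured in 9 libraries, 3 per group, and the design text calls the 3 libraries of a group biological replicates. The authors deposited whole-number read counts per gene, not normalized. TopHat, HTSeq and edgeR were used, with build TAIR10, per the submitters' processing notes. Strand use and the treatment of reads with several matches are not given in the sources used here. A further 3 per-library columns of the table match no sample of the labels and were not used. Gene names, coordinates, exon lengths and upstream sequences came from RefSeq TAIR10.1, matched by locus for 32835 of 33602 genes.

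All 9 libraries entered 1 edgeR 4.0.16 fit in R 4.3.3 (TMM, filterByExpr, glmQLFit, glmQLFTest, two-sided, Benjamini-Hochberg over 20986 genes, threshold 0.05). "Called" means past that threshold. Errors printed with ± next to log2 fold changes are approximate SEs, namely the absolute change over the square root of F. CPM used library totals, 18081553 to 31454984 over all genes, scaled by TMM factors of 0.911 to 1.1, and the biological coefficient of variation was 0.106. No replicate pair was within sampling noise (chi-square per degree of freedom 2.47 or more). Counts of 0 entered the fit unchanged, and the limit printed for a gene with 0 counts is the CPM of 3 counts. Alternatives were DESeq2 1.42.0, limma voom 3.58.1, other scalings and filters, the compared groups alone, each library left out, and the replicate number as a block. Figures used matplotlib 3.10.9.

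Per-library values are given for up to 4 called members of a class with the largest change in each comparison with mock WT. Other called members are named, and further genes with values were chosen after these were seen. The members and lists were chosen with earlier results of these data known. Same-numbered JA WT and mock WT libraries deviated together from their group means (correlations 0.306, 0.104 and 0.184), so the numbers may pair them. The main fit held no block, and the number entered as a block only in an alternative fit. The numbers of mock lhp1 did not pair with mock WT (−0.109, 0.00474 and 0.0781). Of the tested members, 1 stays in all counts and medians but is not reported here by itself.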

Additional observations from a re-analysis of the deposited data

How the results depend on the processing

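Calls against mock WT were kept in every alternative for 3 of 6 auxin genes lower after jasmonate and for 13 of 20 lower and 2 of 3 higher in lhp1. After jasmonate the count of higher genes was 1 with limma voom and 1 with the replicate block, in both cases GH3.3, and 0 to 2 with 1 library left out, against 0. The count lower was 13 with total counts and 3 with the compared groups alone, against 6. In lhp1 10 were higher with total counts, against 3, and in JA WT against mock lhp1 16 were lower, against 8. Of the further pathway genes, 12 were lower after jasmonate, 12 higher in lhp1 and 25 lower in JA WT against mock lhp1 with total counts, and 5 were higher in lhp1 with the replicate block. With total counts the class medians after jasmonate were 0.0352 (YUCCA), −0.27 (Aux/IAA), −0.56 (GH3), −0.0548 (PIN) and −0.51 (AUX1/LAX). In lhp1 they were −0.12 (YUCCA), −0.15 (Aux/IAA), −0.00837 (GH3), −0.97 (PIN) and 0.15 (AUX1/LAX). The YUCCA median in lhp1 was −0.31 with limma voom and −0.49 with the compared groups alone, and that of AUX1/LAX was 0.0125 with DESeq2 or its size factors. With 1 library left out the medians after jasmonate ran from −0.0639 to 0.32 (YUCCA), −0.18 to −0.0300 (Aux/IAA), −0.56 to −0.37 (GH3), 0.0131 to 0.12 (PIN) and −0.48 to −0.33 (AUX1/LAX). In lhp1 they ran from −0.43 to −0.0254 (YUCCA), −0.39 to −0.225 (Aux/IAA), −0.23 to −0.0783 (GH3), −1.24 to −1.02 (PIN) and −0.0741 to 0.0815 (AUX1/LAX). In JA WT against mock lhp1 the signs of IAA16 (−0.0521) and IAA27 (−0.0147) reversed with total counts. The cause of these shifts was not tested. Besides GH3.3 and AFB1, the pairing block changed no call of a gene named after jasmonate. Genes under about 1 CPM, such as IAA6, IAA20, YUC1 and GH3.4, are limited by depth.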

Other observations

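Several close relatives of the auxin genes were at or near the limit of counting. YUC10, YUC11 and TAR1 had 0 counts in all 9 libraries, which at 3 counts allows up to 0.104 to 0.151 CPM a library. IAA15 was at 0.0346 to 0.0491 CPM in JA WT, 0 to 0.0440 CPM in mock lhp1 and 0 to 0.113 CPM in mock WT. YUC7 was at 0.104 to 0.300 CPM in JA WT, 0.147 to 0.220 CPM in mock lhp1 and 0.108 to 0.586 CPM in mock WT. IAA32, IAA34 and PIN8 stayed under 0.4 CPM in every library, and none of these genes was tested.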
